A study of Mus musculus with 6 samples.

Results

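Imprinted genes are expressed mainly from 1 parental copy, and 10 of them were followed through blastocysts cultured with vesicles of different origin. The genes were chosen by name, and their rows were taken from the deposited table by symbol. They were *H19*, *Igf2r*, *Cdkn1c*, *Phlda2* and *Slc22a18*, known as maternally expressed, and *Igf2*, *Peg3*, *Peg10*, *Snrpn* and *Impact*, known as paternally expressed. They make up 10 of the 55774 genes of the table, and each symbol matched 1 entry. Of the 10 genes, 7 reached an FPKM (fragments per kilobase of transcript and 1000000 fragments) of at least 1 in at least 3 libraries and were tested together with 11924 genes in all.

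RNA was sequenced from 6 pools of 10 wild-type mouse blastocysts. The embryos were taken from the oviducts of ICR mice, an outbred strain, at the two-cell stage and grown in CZB medium with extracellular vesicles of human Fallopian tubes. In 3 pools the vesicles came from women with endometriosis (oEV-EMT), and in 3 pools from control donors (oEV-ctrl). For the oEV-ctrl donors the sample labels name uterine fibroids and the methods of the study name cervical intraepithelial neoplasia. Every pool had received human vesicles, and libraries from embryos without vesicles were not analysed here. Neither the labels nor the methods say whether pools came from separate cultures, litters or vesicle preparations, so p-values measure the spread between these pools. A pool mixes all cells of its embryos, so fewer cells of a type and less RNA per cell cannot be told apart in it.

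In imprinting, DNA methylation laid down in the egg or the sperm marks control regions of gene clusters. After fertilisation the marks have to be kept while most of the genome loses methylation, for which the zinc finger protein ZFP57 recruits TRIM28 and its partners to methylated control regions. Many imprinted genes act on growth of the embryo and the placenta, and culture of early embryos is known to disturb some of them. The libraries give total RNA of a gene and not the share of each parental copy. Maternal and paternal expression are therefore textbook assignments from later tissues, and several imprinted genes, *Igf2r* among them, are not yet expressed from a single copy in the blastocyst.

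The genes sit in a few clusters, with coordinates on GRCm38 from GENCODE M21. Of the 10 genes, 7 lie on chromosome 7. *H19* spans positions 142575529 to 142578143 and *Igf2* positions 142650766 to 142666816, 72.6 kb further. *Cdkn1c* (143458339 to 143461050), *Slc22a18* (143473736 to 143499334) and *Phlda2* (143501545 to 143503150) follow each other with gaps of 12.7 kb and 2.2 kb. *Snrpn* lies at 59982495 to 60140219 and *Peg3* at 6703892 to 6730431 of the same chromosome. *Igf2r* is on chromosome 17 (12682406 to 12769664), and *Peg10* on chromosome 6 (4747306 to 4760517).

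The sequences shown are those of the microRNA carried within *H19* and the stretches just upstream of RefSeq start sites of *Snrpn* and *Igf2r* on GRCm38.p6. Of the 7 tested genes, *H19* and *Phlda2* had the largest SD of log2(FPKM + 1) within groups. *H19* is a long noncoding RNA, and 3 of its 7 annotated transcripts hold the hairpin of miR-675 in an exon. It lies at bases 997 to 1080 of the longest annotated transcript of 2286 bases. Capitals mark the seed, bases 2 to 8. Both lie on the minus strand, miR-675-5p at chr7:142577112-142577133 and miR-675-3p at chr7:142577078-142577099.
miR-675-5p: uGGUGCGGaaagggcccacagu
miR-675-3p: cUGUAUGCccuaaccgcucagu
The seeds of both arms differ. Libraries of polyadenylated RNA do not measure mature microRNAs, and the entry for the hairpin itself stayed between 0.0724 and 0.122 FPKM in all 6 pools.

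Upstream windows of 250 bases were taken for 6 of the 10 genes, 12 windows in all. None was found for *H19*, *Cdkn1c* and *Peg10*, and *Impact* was not included. They ranged widely in CpG dinucleotides, the sites that imprinting methylates. Capitals mark CpG. The *Snrpn* window lies at chr7:60005200-60005449 and the *Igf2r* window at chr17:12769707-12769956, both on the minus strand and outside annotated exons. This *Snrpn* window is 1 of 4 and belongs to a start site inside the gene span given above. Another of the 4, at chr7:60140226-60140475, lies beside the outer end of that span.
*Snrpn*: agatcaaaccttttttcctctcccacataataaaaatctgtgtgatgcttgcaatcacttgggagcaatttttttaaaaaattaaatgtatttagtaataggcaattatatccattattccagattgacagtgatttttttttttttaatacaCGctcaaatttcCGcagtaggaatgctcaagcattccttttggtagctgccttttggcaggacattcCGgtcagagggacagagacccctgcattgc
*Igf2r*: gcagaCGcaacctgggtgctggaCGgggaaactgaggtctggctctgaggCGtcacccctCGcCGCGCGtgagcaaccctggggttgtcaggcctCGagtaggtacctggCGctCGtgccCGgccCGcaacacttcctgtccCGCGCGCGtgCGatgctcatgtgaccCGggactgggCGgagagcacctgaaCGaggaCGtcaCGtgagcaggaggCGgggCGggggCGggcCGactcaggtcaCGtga
The *Igf2r* window held 27 CpG, a number reached by 8.56% of the 32851 windows of this length, whose median was 6. The *Snrpn* window held 3, and the other 3 windows of *Snrpn* held from 2 to 4. *Phlda2* had 21 CpG and *Peg3* 8, the 4 windows of *Igf2* had from 1 to 22, and that of *Slc22a18* had 0. The *Phlda2* window and the *Igf2* window with 22 CpG lay wholly in annotated exons, so they hold transcribed sequence. Annotated exons also covered 104 bases of the *Peg3* window, 53 of that of *Slc22a18* and 34 of the *Igf2* window with 10 CpG. The motif TGCCGC, the sequence that ZFP57 binds when methylated, was searched on both strands (as TGCCGC and GCGGCA). It was in 0 of the 12 windows and in 8.68% of all windows. The windows were taken at annotated start sites and were not chosen as the methylated control regions. The search therefore does not tell whether those regions hold the motif, and methylation was not measured.

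Depth differed between libraries. From the regular spacing of low values, 1 FPKM in a transcript of 1 kilobase stood for 36.8, 21.5 and 25.2 counting units in the oEV-EMT pools 1, 2 and 3 and for 17.8, 24.4 and 32.4 in the oEV-ctrl pools 1, 2 and 3. Whether such a unit is a read or a read pair is not known. The deepest library was oEV-EMT pool 1 and the shallowest oEV-ctrl pool 1. Log2 values of the tested genes correlated between libraries with an r of 0.954 to 0.982.

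Comparing oEV-EMT with oEV-ctrl asks whether the origin of the vesicles moved the level of these genes. In short, *Snrpn* was higher in every oEV-EMT pool than in any oEV-ctrl pool, and the other tested genes overlapped between the groups. *H19* and *Phlda2* differed several-fold between pools of the same group. None of the 7 tested genes passed an adjusted p of 0.05 with a log2 fold change of at least 1 (limma, Benjamini-Hochberg), and neither did any of the 11924 genes (0%). The smallest adjusted p of any gene was 0.0934. At an unadjusted p of at most 0.05 stood 1831 genes (15.4%, of which 12.8% higher and 2.55% lower in oEV-EMT), and limma with array quality weights called 104 genes past both thresholds, none of them among the 10. Of the 7 genes, 1 had such an unadjusted p (14.3%), near the share of all genes. Likewise, 1 of the 7 (14.3%) had groups without overlap, against 22.4% of all tested genes (18.1% higher and 4.34% lower). In both cases the gene was *Snrpn*, higher in oEV-EMT.

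All fold changes are on the log2(FPKM + 1) scale, oEV-EMT minus oEV-ctrl, which understates changes at low levels. The median over all tested genes on this scale was 0.17 (interquartile range -0.051 to 0.40). Of the 7 genes, 6 had fold changes above 0 and 1 below, where 70.1% of all tested genes were above 0. They had a median of 0.48, which is 0.31 above that of all genes, and 5 of the 7 lay above the latter. The all-gene median depends on the scaling between libraries. It was 0.011 with median-of-ratios scaling and -0.003 with upper quartile scaling, and genes at an unadjusted p of at most 0.05 then split into 769 higher and 770 lower, or 708 higher and 804 lower, instead of 1527 higher and 304 lower. Scaled to equal sums they split into 1850 higher and 182 lower.

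**Figure D1:**
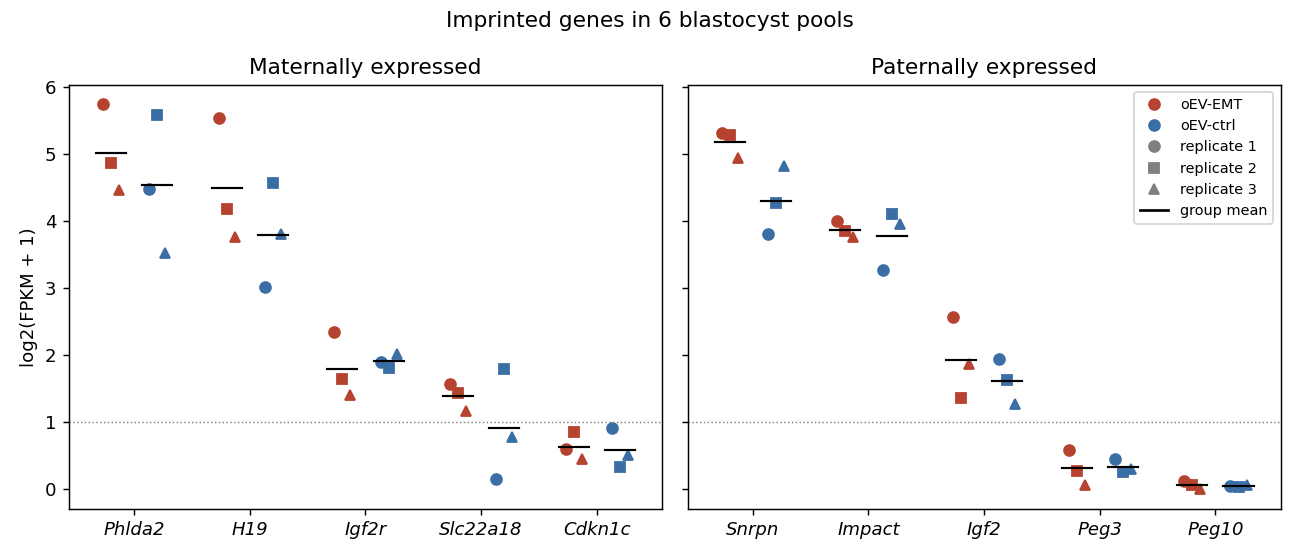
Level of the 10 imprinted genes as log2(FPKM + 1) in each of the 6 pools, by maternally expressed (left) and paternally expressed genes (right). Points are pools, with colours for groups and shapes for replicate numbers, bars are group means (n = 3), and the dotted line is 1 on this axis, an FPKM of 1. *Snrpn* is the gene whose oEV-EMT points all lie above its oEV-ctrl points, and *H19* and *Phlda2* span the widest ranges on this axis.

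Mean levels over the 6 pools set a clear division. *Phlda2* came first with 30.2 FPKM ± 16.4 (SD, n = 6), followed by *Snrpn* with 27.6 ± 10.4, *H19* with 19.7 ± 13.6 and *Impact* with 13.4 ± 2.65. After a gap came *Igf2r* with 2.69 ± 0.841, *Igf2* with 2.59 ± 1.29 and *Slc22a18* with 1.37 ± 0.861. FPKM are per length, so levels can be ordered between genes. *Cdkn1c*, *Peg3* and *Peg10* were lowest, with means of 0.544, 0.262 and 0.0403 FPKM. Among neighbours in this order, only *Impact* and *Igf2r* had ranges that did not overlap. *Phlda2* exceeded *Snrpn* in 3 of 6 pools and *Igf2r* exceeded *Igf2* in 3 of 6.

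*Snrpn* encodes SmN, a core protein of the splicing machinery, and begins the long paternally transcribed region that is lost in Prader-Willi syndrome. It stood at 39.0, 37.8 and 29.6 FPKM in the oEV-EMT pools and at 13.1, 18.3 and 27.4 FPKM in the oEV-ctrl pools. Every oEV-EMT pool was thus above every oEV-ctrl pool, although oEV-EMT pool 3 and oEV-ctrl pool 3 lay close together. The means were 35.5 ± 5.11 and 19.6 ± 7.28 FPKM (SD, n = 3 each). The log2 fold change was 0.88 (SE 0.27, 95% interval 0.27 to 1.48), with an unadjusted p of 0.00924 and an adjusted p of 0.195 (limma). This was 0.70 above the median of the tested genes.

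The direction of *Snrpn* was the same in all 18 alternative settings, with fold changes from 0.63 to 1.14. Its unadjusted p stayed at or below 0.05 in all 18, from 0.00177 to 0.0415, while its adjusted p ranged from 0.11 to 0.652 (limma). Without oEV-ctrl pool 1, the shallowest library and the lowest for *Snrpn*, the fold change was 0.63. The gene shares 26.5% of its stretches of 50 bases with other genes, chiefly *Gm38393* and *Snurf*, which overlap it on the same strand. These 2 genes together held between 0.158 and 0.638 FPKM per pool, and they were lower in every oEV-EMT pool than in any oEV-ctrl pool. Summed over *Snrpn*, *Snurf* and *Gm38393*, the levels ran from 29.8 to 39.2 FPKM in oEV-EMT and from 13.6 to 28.0 FPKM in oEV-ctrl. The sum was therefore again higher without overlap, by 0.84 on the log2 scale.

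*H19*, which shares its control region with *Igf2* and is read from the opposite parental copy, was at 45.3, 17.2 and 12.7 FPKM in the oEV-EMT pools. In the oEV-ctrl pools it was at 7.08, 22.7 and 13.0 FPKM. The highest and the lowest pool, oEV-EMT 1 and oEV-ctrl 1, were 6.40 times apart, and the remaining 4 pools of both groups were mixed. Its log2 fold change was 0.70 (SE 0.55, 95% interval -0.58 to 1.99, adjusted p 0.575, limma). It was 0.19 without oEV-EMT pool 1 and 0.31 without oEV-ctrl pool 1. Without oEV-ctrl pool 2 it was 1.09.

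*Igf2*, the growth factor gene beside *H19*, was at 4.96, 1.57 and 2.64 FPKM in oEV-EMT and at 2.84, 2.10 and 1.41 FPKM in oEV-ctrl. Its highest pool was also oEV-EMT pool 1, and the other 5 pools were interleaved. The log2 fold change was 0.32 (SE 0.32, 95% interval -0.39 to 1.03, adjusted p 0.661, limma), and -0.001 without oEV-EMT pool 1. *Igf2* shares 62.1% of its stretches of 50 bases with *Gm49394*, listed at 0 in every pool, and with the antisense gene *Igf2os*, whose reads this kit cannot separate. *Igf2os* was at 1.11, 0.311 and 0.647 FPKM in oEV-EMT and at 0.559, 0.402 and 1.07 FPKM in oEV-ctrl, with no separation of the groups. Its values leave the level of *Igf2* uncertain.

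*Igf2r*, the receptor that carries IGF2 to the lysosome for breakdown, was at 4.10, 2.12 and 1.66 FPKM in oEV-EMT and at 2.74, 2.50 and 3.04 FPKM in oEV-ctrl. The oEV-ctrl pools were close to each other and lay inside the wider range of the oEV-EMT pools. It was the tested gene with a fold change below 0, at -0.11 (SE 0.27, 95% interval -0.70 to 0.48, adjusted p 0.869, limma). Without oEV-EMT pool 3 the value was 0.087, and without oEV-EMT pool 1 it was -0.38. *Airn*, the antisense RNA that silences the paternal *Igf2r* copy in later tissues, was at 1.31, 2.57 and 2.71 FPKM in oEV-EMT and at 1.47, 1.64 and 2.10 FPKM in oEV-ctrl. The pool with the most *Igf2r* was the one with the least *Airn*. Both genes overlap, and without strand their reads there cannot be told apart.

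*Phlda2* and *Slc22a18* are neighbours of opposite strand under the same control region. *Phlda2*, which restrains growth of the placenta, was at 52.7, 28.2 and 21.1 FPKM in oEV-EMT and at 21.4, 47.2 and 10.6 FPKM in oEV-ctrl. A pool of each group was high, oEV-EMT 1 and oEV-ctrl 2, and the groups overlapped broadly. On the log2 scale the fold change was 0.49 (SE 0.56, 95% interval -0.83 to 1.81, adjusted p 0.709, limma). It was 1.02 without oEV-ctrl pool 2, with an unadjusted p of 0.0436 and an adjusted p of 0.492 (limma), the lowest adjusted p over the alternatives, which reached 0.991. Without oEV-ctrl pool 3 it was -0.014.

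*Slc22a18*, a membrane transporter of the organic cation family, was at 1.96, 1.70 and 1.25 FPKM in oEV-EMT and at 0.109, 2.48 and 0.726 FPKM in oEV-ctrl. Both the lowest and the highest pool belonged to oEV-ctrl. Its lowest value, in the shallowest library, stood for 1.93 counting units per kilobase. The log2 fold change was 0.48 (SE 0.37, 95% interval -0.36 to 1.31, adjusted p 0.565, limma). It was 1.17 with a pseudocount of 0.1 in place of 1 and 0.097 without oEV-ctrl pool 1. Without oEV-ctrl pool 2 it was 0.92, with an unadjusted p of 0.00733 and an adjusted p of 0.413 (limma), the lowest over the alternatives, which reached 0.937.

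*Cdkn1c*, the third gene of that cluster, encodes the cell cycle inhibitor p57. It was at 0.520, 0.807 and 0.372 FPKM in oEV-EMT and at 0.878, 0.259 and 0.429 FPKM in oEV-ctrl, below 1 FPKM in every pool and with the groups interleaved. Of its stretches of 50 bases 24.9% are shared with the antisense gene *Gm44732*, which was listed at 0 in every pool. Fitted with a lower filter of 0.1 FPKM, its log2 fold change was 0.052 (SE 0.19).

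*Impact*, an inhibitor of the amino acid sensor GCN2, was at 15.1, 13.5 and 12.5 FPKM in oEV-EMT and at 8.68, 16.2 and 14.6 FPKM in oEV-ctrl. It was the steadiest of the 7 genes, with only oEV-ctrl pool 1 set apart at the low end, and the oEV-EMT pools lay inside the range of oEV-ctrl. The log2 fold change was 0.095 (SE 0.26, 95% interval -0.47 to 0.67, adjusted p 0.879, limma). Its sign turned under median-of-ratios scaling (-0.087), upper quartile scaling (-0.10) and array quality weights (-0.019), and without oEV-ctrl pool 1 (-0.16).

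*Peg3*, a zinc finger gene, and *Peg10*, a retrotransposon-derived gene needed for the placenta, stayed below 1 FPKM in every pool. *Peg3* was at 0.506, 0.211 and 0.0516 FPKM in oEV-EMT and at 0.366, 0.197 and 0.240 FPKM in oEV-ctrl. *Peg10* was listed at 0.0883, 0.0477 and 0 FPKM in oEV-EMT and at 0.0362, 0.0279 and 0.0419 FPKM in oEV-ctrl. In both genes the oEV-EMT pools included the highest and the lowest value. The largest *Peg10* value stood for 3.24 counting units per kilobase of transcript and the largest *Peg3* value for 18.6. Fitted with no filter on low values, the log2 fold change was -0.026 (SE 0.15) for *Peg3* and 0.013 (SE 0.032) for *Peg10*, where the added 1 FPKM outweighs both levels.

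**Figure D2:**
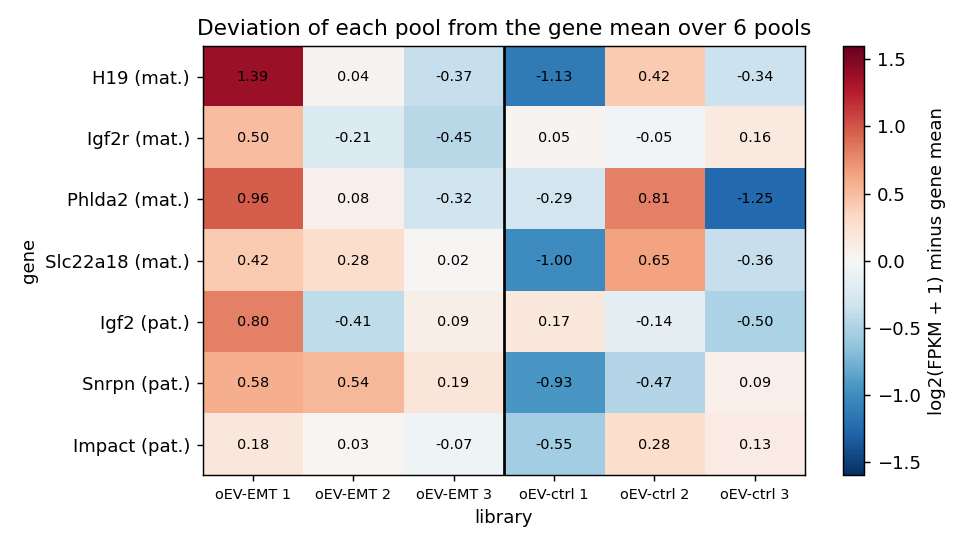
Deviation of each pool (columns) from the mean of the gene over 6 pools, in log2(FPKM + 1), for the 7 tested genes (rows, mat. for maternally and pat. for paternally expressed). Red is above and blue below the mean, the line divides oEV-EMT from oEV-ctrl, and oEV-EMT 1 is above the mean in every gene while oEV-ctrl 1 and oEV-ctrl 2 are strongest in opposite directions for *Slc22a18*.

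Set by parental expression, the median fold change (log2) was 0.48 for the 4 tested maternally expressed genes and 0.32 for the 3 tested paternally expressed genes. No p is given for the difference of 0.16, since the genes share their libraries. It was 0.64 without oEV-ctrl pool 2 and -0.28 without oEV-ctrl pool 1, so its size and its sign changed with the pool left out. It was -0.093 without oEV-EMT pool 2 and 0.017 without oEV-ctrl pool 3. With so few genes the medians rest on *Phlda2* with *Slc22a18* and on *Igf2*.

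The mean log2(FPKM + 1) of the 4 maternally expressed genes was 3.80, 3.03 and 2.70 in the oEV-EMT pools and 2.39, 3.44 and 2.54 in the oEV-ctrl pools. For the 3 paternally expressed genes it was 3.97, 3.50 and 3.52 in oEV-EMT and 3.01, 3.34 and 3.35 in oEV-ctrl. The maternally expressed genes overlapped between the groups, whereas the mean of the paternally expressed genes was higher in each oEV-EMT pool than in any oEV-ctrl pool, with *Snrpn* the only one of the 3 to show this alone. The mean over all tested genes differed between pools as well, at 3.75, 3.70 and 3.59 in oEV-EMT and at 3.45, 3.47 and 3.60 in oEV-ctrl. Relative to it the paternally expressed genes were at 0.21, -0.20 and -0.069 in oEV-EMT and at -0.44, -0.13 and -0.25 in oEV-ctrl, so that the groups overlapped. The difference of both means, maternal minus paternal, was -0.49 ± 0.32 in oEV-EMT and -0.45 ± 0.49 in oEV-ctrl (SD, n = 3 each). The balance between both kinds of gene thus differed between the groups by -0.04, far less than between pools of 1 group.

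**Figure D3:**
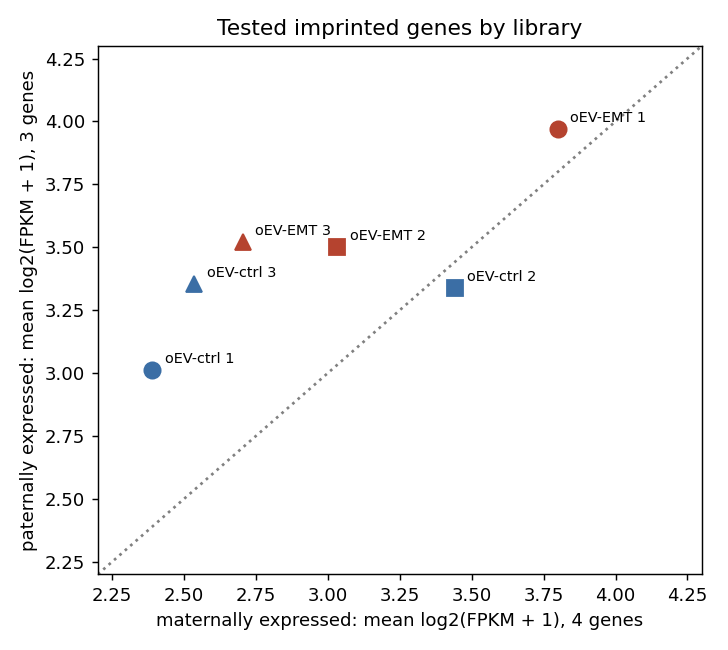
Mean log2(FPKM + 1) of the 4 tested maternally expressed genes against that of the 3 tested paternally expressed genes, for each of the 6 pools (red oEV-EMT, blue oEV-ctrl). Points above the dotted line of equality have the higher paternal mean, as 5 of the 6 pools do, and oEV-ctrl 2 lies below it.

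Spread between pools was measured as the residual SD within groups on the log2 scale. It was 0.86 for *Phlda2* and 0.85 for *H19*, larger than that of 97.6% and 97.4% of all tested genes. *Slc22a18* followed with 0.60 (93.4%) and *Igf2* with 0.49 (87.1%). *Snrpn* had 0.39 (74.4%), *Igf2r* 0.35 (67.0%) and *Impact* 0.32 (60.3%).

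All 7 genes lay above the median of all tested genes, 0.29 (interquartile range 0.20 to 0.39), and above the fitted trend at their own level. The ratio to the trend was 2.92 for *Phlda2*, 2.80 for *H19*, 2.11 for *Slc22a18* and 1.06 for *Impact*. The median SD was 0.73 for the 4 maternally expressed genes and 0.39 for the 3 paternally expressed genes. For the other imprinted genes tested it was 0.32, close to that of all genes. These SDs rest on few pools. Leaving out oEV-EMT pool 1 lowered the SD of *H19* to 0.66, that of *Igf2* to 0.34 and that of *Igf2r* to 0.13, and leaving out oEV-ctrl pool 2 lowered that of *Phlda2* to 0.66 and that of *Slc22a18* to 0.31. Without oEV-ctrl pool 3 the SD of *Snrpn* was 0.26, and without oEV-ctrl pool 1 that of *Impact* was 0.12. With a pool left out, 6 or 7 of the 7 genes lay above the median of all tested genes and 5 to 7 above the trend.

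**Figure D4:**
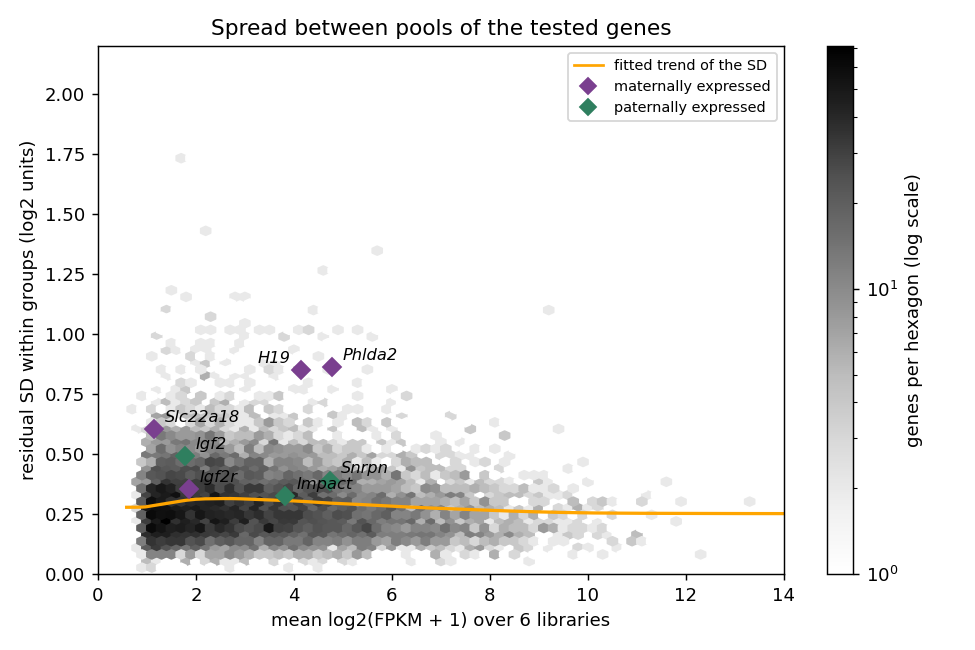
Residual SD within groups (log2 units) against mean log2(FPKM + 1) over 6 libraries. Grey hexagons count the 11924 tested genes, the orange line is the fitted trend, and diamonds are the 7 imprinted genes, all above the line with *H19* and *Phlda2* farthest from it.

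A few pools set the range of most genes. Among the 7 tested genes oEV-EMT pool 1, the deepest library, was highest in 5 (*H19*, *Phlda2*, *Igf2r*, *Igf2* and *Snrpn*), and oEV-ctrl pool 2 was highest in *Slc22a18* and *Impact*. The shallowest library, oEV-ctrl pool 1, was lowest in 4 (*H19*, *Slc22a18*, *Snrpn* and *Impact*). Whether depth had a part in these values was not tested. Over the 6 pools the 21 pairs of tested genes had correlations from -0.102 to 0.863, with a median of 0.495, where all points share library and depth. The highest were those of *Slc22a18* with *Impact* (r = 0.863) and of *H19* with *Slc22a18* (r = 0.824).

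Across all tested genes, the levels most like those of *H19* over the 6 pools were those of *Lcp1*, which encodes the actin-bundling protein plastin 2 (r = 0.9995), *Wdr72* (r = 0.9907) and *Shld1* (r = 0.9866). *Lcp1* was at 124.6, 81.1 and 69.2 FPKM in oEV-EMT and at 54.4, 89.7 and 69.9 FPKM in oEV-ctrl, in the same order of pools as *H19*. In all, 187 of the 11924 genes had an r with *H19* above 0.9, and these were picked from all genes over only 6 points.

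A wider list of 60 other imprinted genes was read from the same fit. Of these, 25 were tested and 34 stayed below 1 FPKM in every pool. None passed both thresholds. At an unadjusted p of at most 0.05 were 3 higher and 1 lower, 16% of those tested against 15.4% of all genes, and 24% had groups without overlap against 22.4%. The median log2 fold change was 0.24, which is 0.072 above that of all genes. Together with the genes above, the 17 tested maternally expressed genes had a median of 0.42 and the 15 tested paternally expressed genes one of 0.32.

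Among the paternally expressed genes of the wider list, *Mest*, a hydrolase gene tied to growth, was at 3.52, 4.11 and 5.44 FPKM in oEV-EMT and at 2.35, 2.01 and 2.17 FPKM in oEV-ctrl. All oEV-EMT pools were higher, with a log2 fold change of 0.74 (SE 0.22, adjusted p 0.187, limma). The most abundant were *Mcts2*, *Slc38a4*, an amino acid transporter, and *Jade1*, with fold changes of 0.14, 0.33 and -0.079.

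Among its maternally expressed genes, *Cd81*, a tetraspanin gene next to the *Phlda2* cluster, was at 10.8, 8.07 and 7.85 FPKM in oEV-EMT and at 4.41, 4.04 and 6.42 FPKM in oEV-ctrl. The groups did not overlap, with a log2 fold change of 0.74 (SE 0.24, adjusted p 0.211, limma). *Commd1* (0.42), *Tssc4* (0.55) and *Qpct* (0.62) were also higher and *Ube3a* (-0.27), a ubiquitin ligase gene, lower without overlap, with adjusted p from 0.318 to 0.549 (limma). *Grb10*, an adaptor that dampens insulin and IGF signalling, was at 0.622, 2.03 and 1.06 FPKM in oEV-EMT and at 2.15, 2.90 and 1.82 FPKM in oEV-ctrl. Its groups overlapped, and its log2 fold change was -0.59 (SE 0.26, unadjusted p 0.0484, adjusted p 0.321, limma). *Nap1l4*, among the most abundant, had 0.19.

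**Figure D5:**
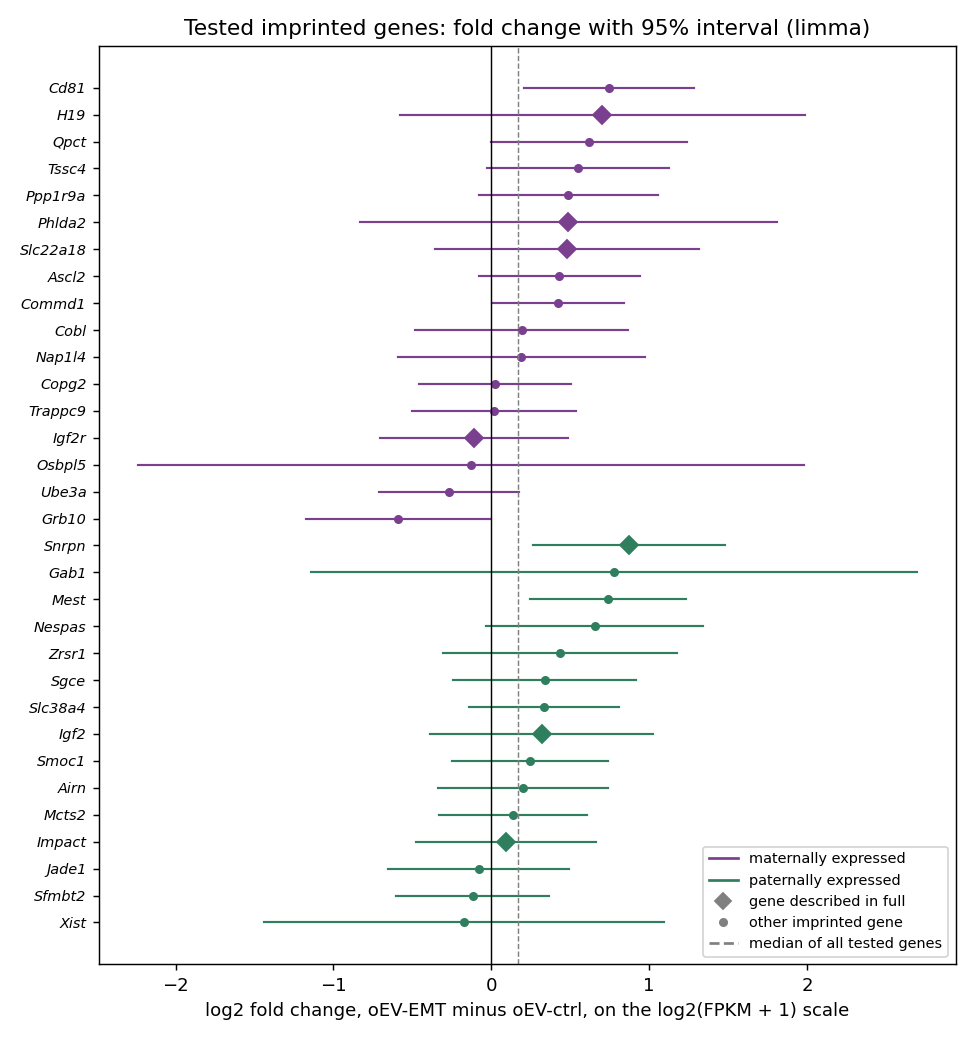
Log2 fold change, oEV-EMT minus oEV-ctrl on the log2(FPKM + 1) scale, with 95% intervals from limma for the 32 tested imprinted genes. Diamonds are the 7 genes described in full, dots the 25 others, and the dashed line is the median of all tested genes. The intervals of *Snrpn*, *Cd81*, *Commd1* and *Mest* lie above 0 and that of *Grb10* just below it.

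Of the 18 factors that keep imprints or act on chromatin, 17 were tested and 0 passed both thresholds with all 6 pools. *Zfp57* was at 19.2, 16.3 and 3.36 FPKM in oEV-EMT and at 2.04, 2.75 and 2.81 FPKM in oEV-ctrl. In 2 of the oEV-EMT pools it was far above every oEV-ctrl pool, while oEV-EMT pool 3 was only just above them. Its fold change was 1.71 on the log2 scale (SE 0.56, unadjusted p 0.0168, adjusted p 0.232, limma). With a pool left out it ranged from 1.31 to 2.41 and its unadjusted p reached 0.053 (limma). Without oEV-EMT pool 3 it was 2.41 with an adjusted p of 0.0312 (limma), and *Zfp57* was then the only one of all tested genes past both thresholds. The pool left out there was the lowest of oEV-EMT for *Zfp57*, and no other alternative setting put the gene past both thresholds. With the replicate number as a block its adjusted p was 0.223 (limma).

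Its corepressor *Trim28* overlapped between the groups (fold change 0.22). *Dppa3*, which protects maternal methylation in the zygote, ranged from 248.9 FPKM in oEV-EMT pool 1 to 1145 FPKM in oEV-EMT pool 2 and overlapped as well (-0.11). Of the Polycomb subunits, *Eed* was higher (0.30, adjusted p 0.456) and *Ezh2* lower (-0.19, adjusted p 0.664, limma) without overlap. Other Polycomb and methyltransferase genes of the list overlapped.

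Of 10 partners of IGF2 (receptors, binding proteins and RNA-binding proteins), 6 were tested and 0 had an unadjusted p of at most 0.05. The RNA-binding proteins *Igf2bp3*, *Igf2bp2* and *Igf2bp1* were the most abundant, with fold changes of 0.12, 0.62 and 0.36. Of 22 neighbouring genes outside the imprinted lists, 11 were tested and 2 had such a p, where 15.4% of all tested genes did. These were *Dhcr7* and *Nadsyn1*, beyond the *Phlda2* cluster, with fold changes of 0.81 (adjusted p 0.277) and 0.68 (adjusted p 0.222, limma), of which *Nadsyn1* was without overlap. The most abundant neighbours were *Mrpl23* (-0.047), *Bet1* (0.33) and *Ctsd* (0.37), all with overlap.

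Markers of the lineages of the blastocyst were well detected. All 11 trophectoderm, 8 inner cell mass and 7 primitive endoderm markers were tested, and none was at 0 in any pool. Trophectoderm markers summed to 4992 to 7183 FPKM in oEV-EMT and to 7134 to 7476 FPKM in oEV-ctrl. In that list *Elf5* was higher (0.67) and *Dppa1* lower (-0.55) at an unadjusted p of at most 0.05, and *Krt18* (-0.023) and *Krt8* (-0.021) were the most abundant with *Dppa1*. The other 9 had larger p-values. Fold changes of 3 of the 11 lay above the median of all tested genes and those of 8 below it.

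Inner cell mass markers summed to 159.3 to 258.8 FPKM in oEV-EMT and to 138.3 to 251.9 FPKM in oEV-ctrl. Of these 8 genes, 4 were higher without overlap and at an unadjusted p of at most 0.05, namely *Gdf3* (1.11), *Nanog* (1.11), *Fgf4* (0.99) and *Pou5f1* (0.98), with adjusted p from 0.118 to 0.208 (limma). Over all tested genes 12.8% were higher at such a p and 18.1% higher without overlap. The other 4, *Tdgf1* (0.32), *Klf4* (0.11), *Sox2* (-0.32) and *Zfp42* (-0.71), overlapped. Primitive endoderm markers summed to 41.1 to 69.3 FPKM in oEV-EMT and to 40.4 to 52.2 FPKM in oEV-ctrl. Of them, *Gata4* (0.82) and *Sox17* (0.95) were at such a p, *Sox7* (0.52) was higher without overlap, and *Gata6* (-0.19) and *Lama1* (0.33) overlapped. Fold changes of 4 of the 7 lay above the median of all tested genes, and those of 3 (*Gata6*, *Pdgfra* and *Col4a1*) lay below it. Beside the higher *Snrpn*, 4 of 8 inner cell mass markers and 2 of 7 primitive endoderm markers were higher without overlap. Of the 11 trophectoderm markers, 1 was lower without overlap. The summed levels of each of these lists overlapped, and the part of lineage make-up in the level of *Snrpn* was not tested.

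Of 8 cumulus and granulosa cell markers, 4 (*Fshr*, *Ptx3*, *Cyp19a1* and *Lhcgr*) were at 0 in every pool. *Amhr2*, the only one tested, was higher in oEV-EMT without overlap (0.63, adjusted p 0.222, limma), at 2.07 FPKM or less. It had passed the filter through the oEV-EMT pools alone, so it had to differ. The list summed to 1.34 to 2.28 FPKM in oEV-EMT and to 0.536 to 0.817 FPKM in oEV-ctrl. These sums include *Amhr2*, so they are not an observation separate from it. Of 4 oviduct epithelium markers, *Foxj1* was at 0 in every pool, *Ovgp1* and *Pax8* stayed below 0.3 FPKM, and *Krt7*, which trophectoderm also expresses, overlapped between the groups (-0.20). That list summed to 11.5 to 29.8 FPKM in oEV-EMT and to 16.4 to 27.7 FPKM in oEV-ctrl.

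The pools were not sexed. *Xist*, an imprinted RNA that silences the paternal X chromosome in early female mouse embryos, was at 5.61, 6.42 and 10.4 FPKM in oEV-EMT and at 5.80, 4.18 and 21.7 FPKM in oEV-ctrl. Its highest pool was oEV-ctrl 3, and the groups overlapped (-0.17, adjusted p 0.9, limma). Its antisense partner *Tsix* was at 71.3, 74.1 and 124.4 FPKM in oEV-EMT and at 101.4, 173.3 and 164.8 FPKM in oEV-ctrl. This differed by -0.71 on the log2 scale (unadjusted p 0.0305, adjusted p 0.275, limma) with overlap. Reads of these antisense partners cannot be told apart with this kit. The Y-linked *Eif2s3y* was at 43.4, 28.5 and 19.8 FPKM in oEV-EMT and at 30.9, 52.0 and 30.5 FPKM in oEV-ctrl, so every pool held male embryos and the groups overlapped. Of the 6 X- and Y-linked genes listed for sex make-up, 5 were tested. All 5 lay below the median of all tested genes, with fold changes from -0.71 to -0.17, and none was without overlap. The sex make-up of the pools was not tested as a part of any difference.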

How the data were processed

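RNA of 6 pools of 10 blastocysts was sequenced from polyadenylated RNA with a kit that does not mark strand. The submitters' processing notes name StringTie and the build mm10, and the aligner is not given in the sources used here. The authors deposited 1 value per gene and library, called TPM in their methods. Since these sums range from 1293175 to 1551567 and differ between libraries, the deposited values were taken as FPKM, and no further scaling was applied. The table holds 55774 genes, of which 287 are new_gene entries and 55141 matched GENCODE M21. Counts and read totals were not analysed here. A single entry, new_gene48, took 15.3% to 31.5% of the sum.

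Values were tested as log2(FPKM + 1) with limma 3.58.1 in R 4.3.3, with trended and robust variance and Benjamini-Hochberg adjustment. A gene was tested where 3 libraries or more reached 1 FPKM. Thresholds were an adjusted p of 0.05 and an absolute log2 fold change of 1. Relative depth came from the spacing of low values in 7021 genes with a single transcript. Shared sequence was counted in stretches of 50 bases. Python 3.11.15 and matplotlib 3.10.9 served for the figures.

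The 10 genes and all other lists were chosen with earlier results of these data known. Named were the 10 genes, and of the other lists each gene with an unadjusted p of at most 0.05 or without overlap between groups and the 3 with the highest mean. For *H19* the 3 genes with the highest Pearson correlation were named. Alternatives covered scaling, filter, pseudocount, variance model, weights, the replicate number as a block and each library left out in turn.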

Additional observations from a re-analysis of the deposited data

How the results depend on the processing

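Counts and fold changes were recomputed under 18 alternatives, 17 of them for *Igf2*, *Igf2r* and *Slc22a18*, which a filter of 5 FPKM removes, and the spread between pools under 6. *Cdkn1c*, *Peg3* and *Peg10* could be fitted only with a lower filter or none. None of the 10 genes and none of the 60 other imprinted genes passed both thresholds under any alternative that tested them, and the sign of *Snrpn*, *H19* and *Slc22a18* held wherever they were tested. The number of all genes past both thresholds was 0 in the main analysis and 104 with array quality weights, and it ranged from 0 to 16 with a library left out (4 without oEV-EMT replicate 1, 1 without oEV-EMT replicate 3 and 16 without oEV-ctrl replicate 3). Of the 10 genes, 1 to 3 had an unadjusted p of at most 0.05 with a library left out, the 3 without oEV-ctrl replicate 2. Maternal minus paternal medians ranged from -0.28 (without oEV-ctrl replicate 1) to 0.64 (without oEV-ctrl replicate 2), against 0.16. *Impact* turned to -0.087 with median-of-ratios scaling, to -0.10 with upper quartile scaling, to -0.019 with array quality weights and to -0.16 without oEV-ctrl replicate 1. With a library left out, *Impact* ranged from -0.16 to 0.26, *Igf2* from -0.001 (without oEV-EMT replicate 1) to 0.60 (without oEV-EMT replicate 2), *Igf2r* from -0.38 (without oEV-EMT replicate 1) to 0.087 (without oEV-EMT replicate 3) and *Phlda2* from -0.014 (without oEV-ctrl replicate 3) to 1.02 (without oEV-ctrl replicate 2). The cause of these changes was not tested. The median SD of the 7 genes ranged from 0.45 to 0.66 over scalings and pseudocounts, against 0.49. With the replicate number as a block, 21 genes passed both thresholds. The deviations of same-numbered pools correlated by 0.12, -0.044 and 0.039, and those of differently numbered pools by -0.135 to 0.122. With 3 pools per group these values cannot tell whether the numbers pair the pools. Of the 10 genes, 1 had an unadjusted p of at most 0.05 under the block. Groups of 3 pools and a depth that differed 2.07 times limit what could be detected.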
